A study of Homo sapiens with 13 samples.

Results

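RNA polymerase III (Pol III) makes short, untranslated RNAs, and 10 of its genes outside the tRNA genes were followed by name in the accessibility data of T98G cells, an established human glioblastoma line. They were RN7SK, RMRP, RPPH1, RN7SL1, RN7SL2, VTRNA1-1, VTRNA1-2, VTRNA1-3, RNY1 and RNY3. Every ATAC-seq peak within 500 bp of one of these gene bodies was taken, which gave 11 of the 129347 peaks of the series on hg19. All 10 genes had a peak. The genes were chosen by name with the M-phase against G1 values of these same peaks known, so their changes between the phases are given as a description. No p-value is given for them, and where a call from the fit across all peaks is mentioned it only describes the value. Coordinates of 8 genes came from GENCODE release 44 on GRCh37, the assembly of hg19. RPPH1 and RN7SL1 had no entry under these names and were placed by sequence match. RPPH1 was placed from its pseudogene RPPH1-3P, with 77.8% identity over 293 aligned bases, so that its exact first base is not known. RN7SL1 was placed from RN7SL2, with 98.7% identity over 297 bases.

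ATAC-seq inserts adapters with the Tn5 transposase, and reads gather where chromatin is open. The comparison had 3 libraries of G1 cells, kept without serum for 72 h, and 3 of M-phase cells. The latter were starved for 48 h, released for 36 h into 20% serum with nocodazole, which blocks the mitotic spindle, and collected by shaking off the rounded cells. Both groups are the same unmodified line. Serum therefore changed together with the phase, the M-phase libraries had a NextSeq run besides the HiSeq run that all 6 had, and neither can be told apart from the phase. Nothing in the labels says that the replicates of a group were separate cultures, so p-values measure only the spread between these samples. The deposited value of a peak is its read count after every library had been brought down to the size of the smallest, here called the scaled count. They summed to 4191845 to 5092426 per library in G1 and to 5475345 to 6000423 in M-phase. Of the T98G markers, VIM, FOSL1, SOX9 and CD44 had a promoter peak and NES had none. PTPRC, CD3E and ALB, markers of leukocytes and liver, had none, whereas the promoters of the epithelial genes EPCAM and KRT8 had scaled counts of 62.5 to 120.3 and 79 to 137.1.

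The 10 genes use different kinds of promoter. In RN7SK, RMRP and RPPH1 the elements lie upstream of the gene, where the complex SNAPc binds a proximal sequence element (PSE), a TATA box places TFIIIB, and octamer sites recruit POU2F1. In the vault RNA genes (VTRNA) the factor TFIIIC binds an A box and a B box inside the transcribed sequence. The 7SL genes (RN7SL) have internal elements and also need sequence just upstream, and the Y RNA genes (RNY) are usually grouped with the upstream type. Pol III transcription as a whole is known to be repressed in mitosis. RN7SK RNA holds the elongation factor P-TEFb inactive, RMRP and RPPH1 RNAs are the catalytic RNAs of RNase MRP and RNase P, and 7SL RNA is the scaffold of the signal recognition particle (SRP). Vault RNAs are part of the vault particle, and Y RNAs are bound by the Ro protein.

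The sequences of these promoters, read 5′ to 3′ on the strand of the gene from GRCh37, are shown for the 2 types. The first set is the upstream type and the Y RNA genes, with matches in capitals to the PSE core ACCNTNA, the TATA box with the letters TATA, the octamer ATGCAAAT and the core of the binding site of the factor ZNF143. The match to the last is the first run of capitals in RN7SK and lies on the other strand there. The RMRP and RPPH1 stretches start at the base before the TSS of the divergent neighbour, CCDC107 or PARP2. That of RMRP runs down to the base before the gene, and that of RPPH1 to the base before the matched sequence. The RPPH1 stretch can therefore hold the first bases of the gene, whose exact start is not known. The RN7SK stretch, at chr6:52860168-52860437, spans positions -250 to 20, where 1 is the first base of the gene and -1 the base before it. Those of RNY1 and RNY3 span -110 to 20.
RMRP, chr9:35658015-35658286: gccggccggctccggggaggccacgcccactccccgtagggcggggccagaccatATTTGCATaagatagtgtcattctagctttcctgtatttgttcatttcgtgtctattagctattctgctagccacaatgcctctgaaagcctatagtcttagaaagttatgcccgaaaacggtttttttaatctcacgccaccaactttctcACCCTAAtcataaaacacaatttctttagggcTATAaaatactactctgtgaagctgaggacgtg
RPPH1, chr14:20811551-20811773: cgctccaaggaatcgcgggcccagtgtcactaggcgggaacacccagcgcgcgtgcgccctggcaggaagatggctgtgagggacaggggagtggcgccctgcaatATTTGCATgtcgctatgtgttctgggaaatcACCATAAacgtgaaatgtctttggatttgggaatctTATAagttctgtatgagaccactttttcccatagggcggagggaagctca
RN7SK: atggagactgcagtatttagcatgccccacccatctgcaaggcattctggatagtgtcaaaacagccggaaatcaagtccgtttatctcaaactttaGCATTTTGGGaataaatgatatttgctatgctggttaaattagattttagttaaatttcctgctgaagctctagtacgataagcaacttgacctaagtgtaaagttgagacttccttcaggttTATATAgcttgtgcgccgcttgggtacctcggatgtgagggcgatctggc
RNY3, chr7:148680737-148680866: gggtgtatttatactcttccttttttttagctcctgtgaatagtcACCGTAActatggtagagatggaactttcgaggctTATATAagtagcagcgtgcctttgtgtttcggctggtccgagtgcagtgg
RNY1, chr7:148684321-148684450: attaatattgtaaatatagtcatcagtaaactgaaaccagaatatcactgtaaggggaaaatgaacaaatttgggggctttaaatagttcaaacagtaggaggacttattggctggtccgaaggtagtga

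In RMRP the PSE core began at -65 and TATA at -33, which is 32 bases further on. In RNY3 the PSE core also began at -65, and TATA matches began 35 and 37 bases after it. Because the first base of RPPH1 is not known, its whole interval was searched, and the 1 PSE core and 1 TATA in it began 36 bases apart. The octamer was present in RMRP at -217, in RNY3 at -242, outside the printed stretch, and once in the RPPH1 interval. RN7SK held TATA at -30 and -28 and a ZNF143 core at -153, and RNY3 and RNY1 held a ZNF143 core at -232 and -211. The PSE core was searched on the strand of the gene from -80 to -40, TATA from -35 to -20, and the octamer and the ZNF143 core on both strands from -300 to -1. In the same windows before the 5′ ends of 20163 protein-coding genes, the PSE core was found in 1.83%, TATA in 6.06%, the octamer in 1.84% and the ZNF143 core in 1.71%. No PSE core with these letters was found in RN7SK or RNY1.

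The second set is of the internal type, the vault RNA genes, printed whole with the A box and the B box GTTCNANNC in capitals.
VTRNA1-1, chr5:140090860-140090958: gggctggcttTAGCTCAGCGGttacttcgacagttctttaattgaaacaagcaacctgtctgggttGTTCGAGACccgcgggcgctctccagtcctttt
VTRNA1-2, chr5:140098510-140098598: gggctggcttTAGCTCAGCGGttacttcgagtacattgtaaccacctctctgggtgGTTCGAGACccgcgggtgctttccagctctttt
VTRNA1-3, chr5:140105743-140105831: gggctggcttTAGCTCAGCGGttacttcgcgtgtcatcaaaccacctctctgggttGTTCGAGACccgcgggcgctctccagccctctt

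All 3 vault RNA genes had the same A box match at position 11. The same B box match began at 67 in VTRNA1-1 and at 57 in the other two. Matches also crossed the types, with a TATA at -21 in VTRNA1-1 and VTRNA1-2 and a B box match, GTTCTACTC, at 67 in RNY1. The A box consensus was searched on the strand of the gene from 1 to 40 and the B box from 1 to 100, and these were found in 2.11% and 1.08% of protein-coding genes. VTRNA1-1 shared 81.8% of aligned bases with VTRNA1-2 and 82.8% with VTRNA1-3, and VTRNA1-2 shared 87.8% with VTRNA1-3. Over the 300 bases before the genes the identity was 83.6% to 84.6%. RNY1 and RNY3 were 72.6% identical in the gene and 50.1% over the 300 bases before it.

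The peaks of the 10 genes were 968 to 1688 bp wide, against a median of 254 bp over all peaks and 1219 bp over peaks that hold a protein-coding TSS. Per kilobase, their mean level was 75.6 to 234 scaled counts in G1 and 151 to 355.5 in M-phase. These values lay at percentiles 77.7 to 99.1 of all peaks in G1 and 93.1 to 99.0 in M-phase. VTRNA1-2 had the highest level per kilobase in both phases, and RN7SL2 the lowest in G1. In M-phase RN7SL2, with 235.5 per kilobase, ranked above RN7SK, RN7SL1, RNY1 and RNY3, which had 203.6, 174.2, 179.5 and 151.3. Each peak reached upstream of its gene and, apart from that of RNY1, past its 3′ end, so that the values do not separate promoter from gene body. RN7SK had a second peak of 102 bp, which held 2 to 10.3 scaled counts and was too low to be tested. It was the only peak that did not overlap a gene body itself. All other values below are for the strongest peak of each gene.

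**Figure D1:**
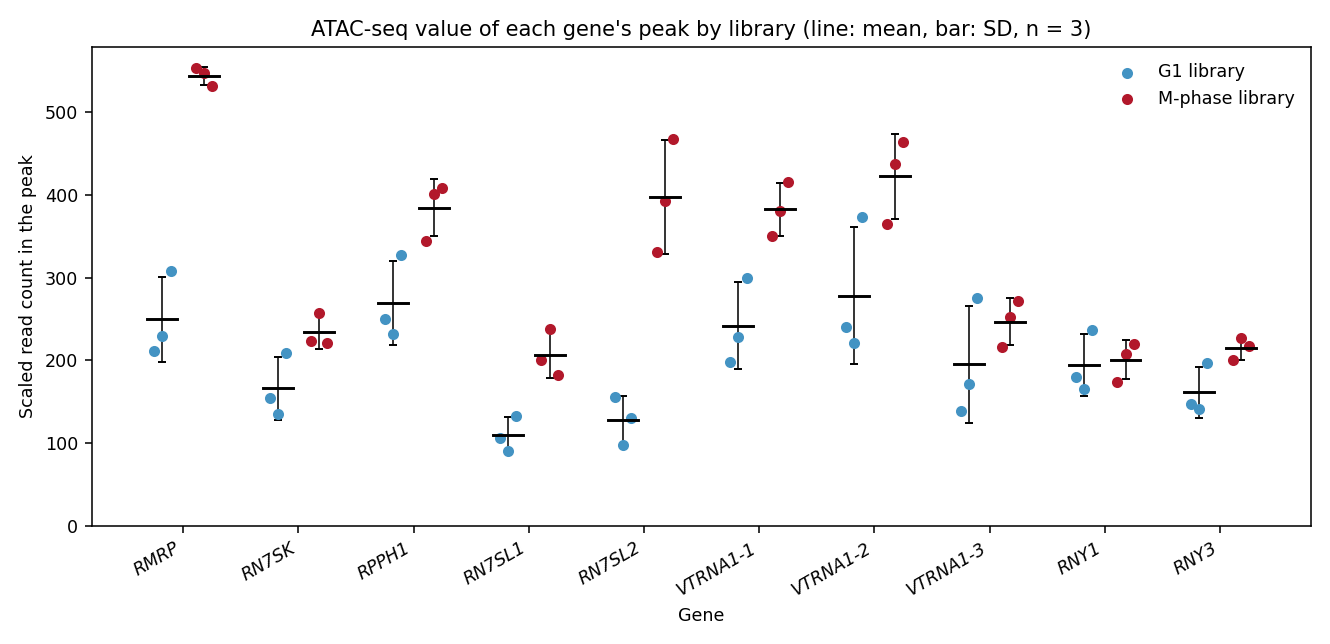
Scaled read counts (vertical axis) in the peak of each of the 10 genes (horizontal axis), with 1 point per library, 3 G1 and 3 M-phase, the mean as a line and the SD as a bar. M-phase libraries lie apart from G1 libraries at RMRP and RN7SL2, where they reach 532.2 to 553.7 and 331.2 to 468.2, and lie among them at RNY1.

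In M-phase the accessibility of 7 of the 10 peaks lay above that in G1 past an adjusted p of 0.05, and none was lower. Across all 73121 peaks tested with limma, 14.3% were higher and 13.1% lower. Since the genes were selected on this contrast, nothing is read from their count. The median log2 change was 0.57 over the 10 genes, 0.07 over all peaks and 0.43 over the 13469 peaks that hold a protein-coding TSS. All log2 changes are M-phase minus G1 on the scale of log2(scaled count + 8). In 7 of the 10 peaks all M-phase libraries lay above all G1 libraries, which was so in 19.7% of all peaks tested. These were RMRP, RN7SK, RPPH1, RN7SL1, RN7SL2, VTRNA1-1 and RNY3. G1 replicate 3 was the highest of the G1 libraries at 9 of the 10 genes, and without it 9 peaks were called higher. Without M-phase replicate 3 the count was 4. Over all peaks tested, 17.1% were higher without G1 replicate 3 and 11.4% without M-phase replicate 3.

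RMRP, the RNA of RNase MRP, rose most among the upstream type. Its peak at chr9:35657443-35659072 had scaled counts of 211.8, 228.9 and 308 in the G1 libraries and of 553.7, 547.2 and 532.2 in M-phase. Every M-phase library lay far above every G1 library, and the M-phase libraries were close together. The means were 249.6 ± 51.3 (SD, n = 3) and 544.4 ± 11 (SD, n = 3), a ratio of 2.18 and a log2 change of 1.12 (SE 0.17). The same peak holds 5 TSSs of the protein-coding gene CCDC107, which is transcribed away from RMRP and starts 273 bp from it. Reads of the promoter of CCDC107 and of RMRP cannot be told apart in this peak.

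RN7SK and RPPH1 changed less. The RN7SK peak, at chr6:52859623-52860770, had 154.1, 135.2 and 209 scaled counts in G1 and 223.7, 256.7 and 220.9 in M-phase. The lowest M-phase library was only a little above G1 replicate 3, and the log2 change was 0.49 (SE 0.19). TSSs of GSTA4, a glutathione transferase gene on the other strand, lie in this peak, the nearest 316 bp upstream of RN7SK. The RPPH1 peak, at chr14:20810579-20812167, had 249.5, 231.3 and 327 in G1 and 344.8, 400.9 and 408 in M-phase. The groups did not overlap, and the log2 change was 0.51 (SE 0.17). It holds TSSs of PARP2, a poly(ADP-ribose) polymerase gene, 224 bp from the matched sequence, and a TSS of the long noncoding RNA gene ENSG00000259001. All 3 genes of the upstream type thus shared their peak with a protein-coding promoter.

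The 7SL genes differed from each other. RN7SL2, at chr14:50328403-50330090, had the largest change of the 10 genes. Its scaled counts were 156.1, 96.9 and 130 in G1 and 331.2, 393.1 and 468.2 in M-phase. All M-phase libraries lay far above all G1 libraries, the ratio of the means was 3.11 and the log2 change 1.59 (SE 0.19). This peak holds no protein-coding TSS, only TSSs of the long noncoding RNA genes ENSG00000278002 and ENSG00000282885. The change stood at percentile 99.7 of all peaks. RN7SL1, at chr14:50052646-50053832 inside RPS29, had 106.4, 90.6 and 133 in G1 and 200.6, 237.7 and 181.9 in M-phase. The groups were again apart, with a log2 change of 0.87 (SE 0.20). Its peak also holds 4 TSSs of RPS29, a ribosomal protein gene, the nearest 200 bp upstream of RN7SL1. Reads of the promoter of RPS29 and of RN7SL1 cannot be told apart in this peak.

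**Figure D2:**
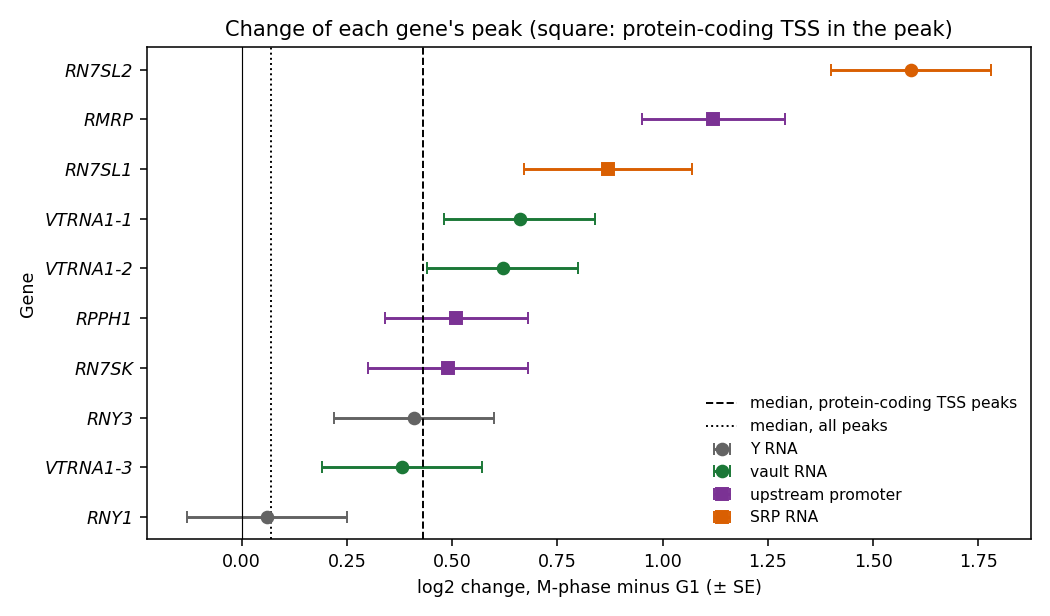
Log2 change from G1 to M-phase (horizontal axis, with its SE) of the peak of each gene (vertical axis), coloured by promoter type, with squares for peaks that hold a protein-coding TSS. RN7SL2 at 1.59 and RMRP at 1.12 lie furthest to the right of the median of protein-coding TSS peaks at 0.43, and RNY1 at 0.06 lies at the median of all peaks.

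The vault RNA genes stand in a row on chromosome 5, with 6707 and 6010 bp between their peaks and no protein-coding TSS in any of them. The peak of VTRNA1-1 holds a TSS of the noncoding gene ENSG00000292256. VTRNA1-1, with its peak at chr5:140089932-140091259, had 197.8, 228.1 and 300 scaled counts in G1 and 351, 381.1 and 415.7 in M-phase. The groups did not overlap, and the log2 change was 0.66 (SE 0.18). VTRNA1-2, at chr5:140097966-140099154, had 240.6, 221.1 and 373 in G1 and 365.4, 438 and 464.8 in M-phase. Here G1 replicate 3 lay above M-phase replicate 1, with a log2 change of 0.62 (SE 0.18). VTRNA1-3, at chr5:140105164-140106131, had 139.2, 171.9 and 275 in G1 and 215.9, 252.6 and 272.3 in M-phase. G1 replicate 3 exceeded all M-phase libraries there, and the log2 change of 0.38 (SE 0.19) was not past the threshold.

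The Y RNA genes RNY1 and RNY3 are neighbours on chromosome 7, with 2977 bp between their peaks. RNY3, at chr7:148679855-148681272, had 147.1, 140.6 and 197 scaled counts in G1 and 199.8, 227 and 217 in M-phase. The lowest M-phase library was just above the highest G1 library, and the log2 change of 0.41 (SE 0.19) was not past the threshold. RNY1, at chr7:148684249-148685366, had 179.9, 165.6 and 237 in G1 and 174.3, 207.7 and 219.9 in M-phase. The libraries of the 2 phases were interleaved, with a ratio of the means of 1.03 and a log2 change of 0.06 (SE 0.19). Neither peak holds a protein-coding TSS, and that of RNY1 holds a TSS of the long noncoding RNA GHET1.

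By promoter type, the median log2 change was 0.51 for the 3 genes of the upstream type and 0.66 for the 5 vault RNA and 7SL genes, a difference of -0.15, which turned to 0.02 under the loess normalization described below. The medians were 0.62 for the 3 vault RNA genes, 1.23 for the 2 7SL genes and 0.23 for the 2 Y RNA genes. Both the upstream and the internal type held a gene with a log2 change over 0.8 and a gene with one under 0.5, so the spread within a type was larger than the difference between the types. The presence of a protein-coding TSS went with promoter type: it was found in all 3 peaks of the upstream type, in 1 of 5 of the internal type and in none of the Y RNA peaks. The 4 peaks with a protein-coding TSS had a median log2 change of 0.69 and the 6 without one a median of 0.51. Over all peaks tested with a protein-coding TSS the median was 0.45, with 47.1% called higher and 5.29% lower. Over those without one it was -0.05, with 7.1% higher and 14.8% lower. Of the 6 peaks without a protein-coding TSS, 3 were called higher, those of RN7SL2, VTRNA1-1 and VTRNA1-2.

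Because protein-coding promoter peaks as a group were higher in M-phase in the deposited scaling, the level of each gene was also set against the median of these peaks in the same library. The median was 121.1 to 151 scaled counts in G1 and 174.7 to 196.8 in M-phase. Relative to it, RN7SL2 lay, in log2 units, at 0.25, -0.30 and -0.20 in the G1 libraries and at 0.89, 1.01 and 1.22 in those of M-phase. RMRP lay at 0.67, 0.88 and 0.99 in G1 and at 1.62, 1.48 and 1.40 in M-phase. Both stayed clearly apart, and RN7SL1 did by a smaller step, with -0.11 as its lowest M-phase value and -0.17 as its highest G1 value. VTRNA1-1 was barely apart, with 0.95 as its highest G1 value and 0.97 as its lowest M-phase value. RNY1 lay below: its relative level was 0.43 to 0.62 in G1 and 0.00 to 0.15 in M-phase. The other 5 genes overlapped, with differences between the phase means of -0.09 to 0.16.

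**Figure D3:**
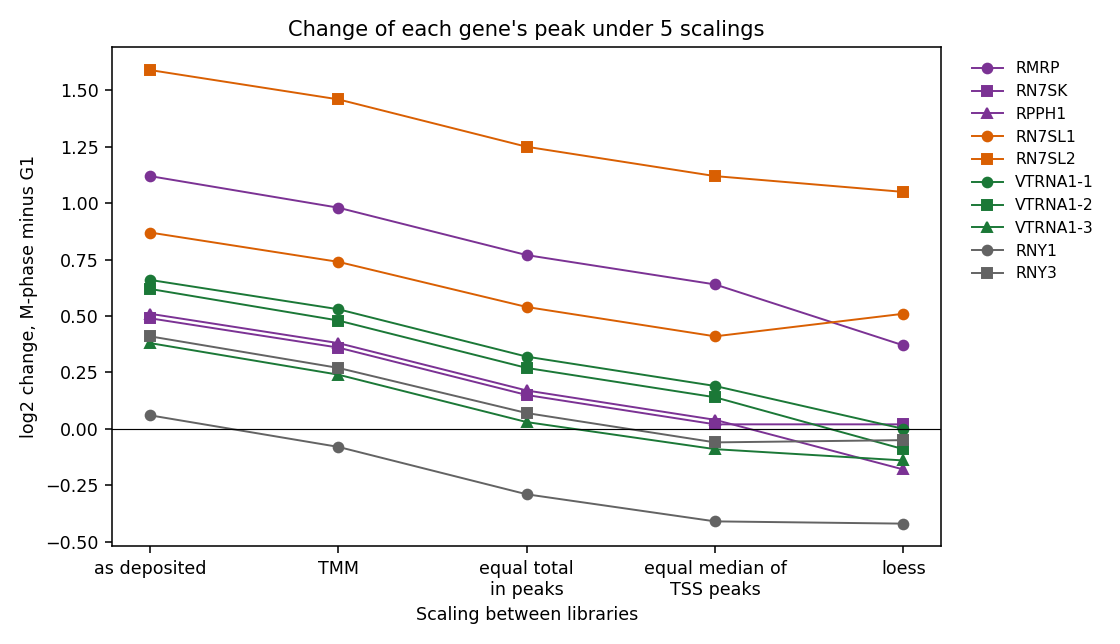
Log2 change from G1 to M-phase (vertical axis) of the peak of each gene, with 1 line per gene, under 5 scalings between libraries (horizontal axis). RN7SL2, RMRP and RN7SL1 stay above 0 in each, while most other genes fall to near 0 once protein-coding TSS peaks are set equal and RNY1 falls to -0.41.

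Across these scalings the call of 5 of the 10 genes changed. RMRP, RN7SL1 and RN7SL2 were called higher under the deposited scaling, TMM, equal totals in peaks, an equal median of protein-coding TSS peaks and trended loess alike. VTRNA1-1 and VTRNA1-2 were called higher under the deposited and the TMM scaling, and RN7SK and RPPH1 only under the deposited one. VTRNA1-3 and RNY3 were called under none. Since the genes were selected on this contrast, these calls describe the libraries, and nothing is read from which genes kept them. RNY1 was called lower with equal promoter medians, at -0.41, and with loess, at -0.42. With loess the log2 changes of RPPH1 (-0.18), VTRNA1-2 (-0.09), VTRNA1-3 (-0.14) and RNY3 (-0.05) were also below 0, and that of VTRNA1-1 was 0.0. The median of all peaks moved by -0.07 for TMM, -0.19 for equal totals and -0.26 for equal promoter medians. Loess was run on the tested peaks only, whose median log2 change was 0.02 in the deposited scaling and 0.04 with loess.

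Part of these peaks lies in sequence with near-identical copies elsewhere, and mapping kept reads with up to 3 locations. Of all windows of 50 bases, a length chosen here because the read length is not given in the sources used here, 100% were unique in the genome in the RMRP peak. The share was 93.9% to 99.5% in the peaks of RPPH1, VTRNA1-1, VTRNA1-3, RNY1 and RNY3. It was lower in the peaks of RN7SL1 (74.6%), RN7SK (80.2%), VTRNA1-2 (82.7%) and RN7SL2 (86.3%). In RN7SL1 14.4% of windows had 2 or 3 copies and 11% had more, and in RN7SL2 these shares were 5.67% and 8.05%. Single reads of the 7SL gene bodies can therefore be uncertain between the copies or, with over 3 locations, lost, while most of each peak is unique. The reads were mapped in pairs, and a mate in unique sequence can place a read, which single windows do not show. The GC content of the 10 peaks was 46.9% to 59.8%, against medians of 50.6% over all peaks and 63.3% over those with a protein-coding TSS.

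The nearest peaks on either side of the 10 genes were 14 peaks at 4562 to 2044003 bp, of which 9 could be tested. The median log2 change of the 9 was 0.24, and 2 were higher and none lower, against 14.3% and 13.1% of all peaks tested. One, 4562 bp from the RN7SL2 peak, had 56.7, 56.3 and 57 scaled counts in G1 and 95.2, 101.4 and 76 in M-phase (log2 change 0.60, SE 0.22, adjusted p = 0.0341 from limma). The other, 14100 bp from RNY3, had 3 to 7 in G1 and 12.4 to 15.4 in M-phase (log2 change 0.74, SE 0.28, adjusted p = 0.0365 from limma). Both flanks of RMRP, the promoters of CD72 and ARHGEF39, had log2 changes of 0.24 (SE 0.22) and 0.07 (SE 0.22), with overlapping libraries. The other flanks tested, the shared promoter peak of LRR1 and RPS29 beside RN7SL1 (0.27), the promoter peaks of CCNB1IP1 beside RPPH1 (0.36) and ZMAT2 beside VTRNA1-1 (0.19) and 2 peaks with no protein-coding TSS beside RN7SK (0.16) and RPPH1 (0.10), overlapped between the phases as well.

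Other small RNA genes of Pol III moved in a similar range. Of 11 listed, 10 had a peak. Taking the strongest peak of each gene, 9 separate peaks were tested, of which 6 were higher and none lower, with a median log2 change of 0.59. The share called higher was 14.3% over all peaks tested, 47.1% with a protein-coding TSS and 7.1% without one. Among the genes of U6 snRNA, a spliceosomal RNA with an upstream Pol III promoter, RNU6-2 had 251.5, 171.9 and 187 scaled counts in G1 and 405, 456.9 and 486 in M-phase (log2 change 1.13, SE 0.18, adjusted p = 2.16e-07 from limma). Its peak also holds the promoter of TMEM259. RNU6-1 (0.67), the shared peak of RNU6-7 and RNU6-8 (0.76), which lies over RNU6-8 and beside the body of RNU6-7, RNU6-9 (0.55, with the promoter of MED16) and RNU6ATAC (0.59) were higher as well. A second, weaker peak beside RNU6-7 (0.84), which is not among the 9, was also higher. With equal totals or equal promoter medians 2 of the 9 peaks were called higher, with loess 3, and without G1 replicate 2 or M-phase replicate 3 also 3. Over all peaks tested, 8.67%, 6.75%, 10.8%, 13.3% and 11.4% were higher in these settings, in that order. The 7SL gene RN7SL3 was represented by a peak over the promoter of NEMF outside its gene body, with a log2 change of 0.99 (SE 0.24). The peak over its own body had 3.9 to 11.1 scaled counts and was too low to be tested. The Y RNA genes RNY4 (log2 change 0.30, SE 0.21) and RNY5 (0.46, SE 0.19) and the vault-related VTRNA2-1 (0.08, SE 0.22) were not past the threshold, and BCYRN1 had no peak. None of the 4 Y RNA genes was thus called higher in the deposited scaling with all libraries. Without G1 replicate 3, RNY3 and RNY5 were, and RNY5 was also called with the replicate block and with a filter of at least 10 in every library.

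The snRNA genes of RNA polymerase II use a PSE of the same kind without a TATA box. Of 17 listed, 14 had an entry and 13 a peak, and all 11 separate peaks tested were higher, with a median log2 change of 0.92, against 14.3% of all peaks and 47.1% of protein-coding TSS peaks called higher. The largest change was at the shared peak of RNU4-1 and RNU4-2, which had 309.2, 250.8 and 253 scaled counts in G1 and 694.6, 704.2 and 773.7 in M-phase (log2 change 1.40, SE 0.16, adjusted p = 3.49e-11 from limma). RNU5B-1 (1.17), RNU7-1 (1.09), RNU5E-1 (0.94), RNU2-2P (0.93) and RNU5A-1 (0.92) followed. RNU1-2 (0.78), RNU5D-1 (0.78), RNU1-3 (0.77), RNU4ATAC (0.70) and RNU1-4 (0.68) changed least. With loess, RNU1-4, RNU2-2P and RNU4ATAC turned to -0.02, -0.08 and -0.05. In that setting 4 of the 11 were called higher, against 10.8% of all peaks tested. The peaks of RNU1-4, RNU2-2P, RNU4ATAC and RNU7-1 also hold a TSS of CROCC, WDR74, CLASP1 and C12orf57. RNU1-1 had no peak, and RNU5F-1 was too low to be tested. Copies in the genome were not counted for these peaks or for those of the other Pol III small RNA genes. Reads of genes with similar sequence may therefore be shared between peaks.

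**Figure D4:**
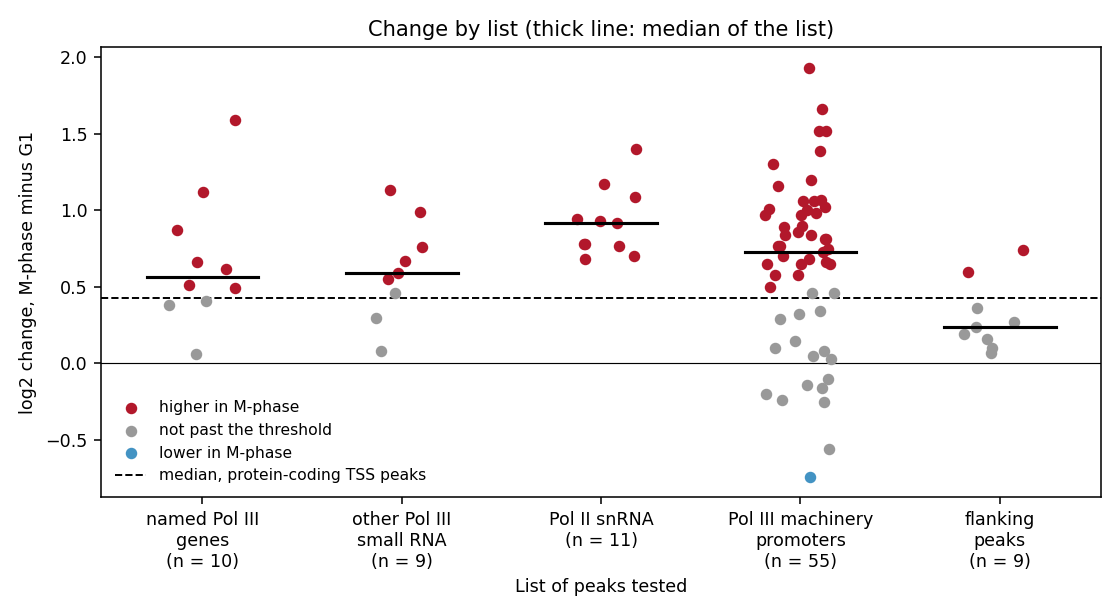
Log2 change from G1 to M-phase (vertical axis) of the peaks tested in 5 lists (horizontal axis), 1 point per peak, coloured by its call. Genes are shown by their strongest peak. The median of each list is a thick line and the median of protein-coding TSS peaks is dashed. The medians are 0.57 for the 10 named genes, 0.59 for other Pol III small RNA genes, 0.92 for Pol II snRNA genes, 0.73 for machinery promoters and 0.24 for flanking peaks.

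Promoters of the Pol III machinery and of the proteins that bind these RNAs were mostly higher in M-phase in the deposited scaling. Of 57 names listed, 55 genes had a promoter peak, and 37 were higher, 1 was lower and 17 were not past the threshold. The 37 make 67.3% of those tested, against 47.1% of all protein-coding TSS peaks, and the median log2 change was 0.73. With equal totals, equal promoter medians and loess, 26, 22 and 17 of the 55 were higher and 7, 10 and 6 lower. Over all peaks tested, 8.67%, 6.75% and 10.8% were higher in that order. The matching shares of protein-coding TSS peaks were not computed. POLR3E, a Pol III subunit, changed most, with 263.5, 225.8 and 371 scaled counts in G1 and 975.1, 1063.5 and 1246.3 in M-phase (log2 change 1.93, SE 0.16, adjusted p = 8.28e-17 from limma). The subunits POLR3D (1.39) and POLR3A (0.90) also rose. The subunits POLR3F (-0.16) and POLR1C (0.46) were not past the threshold. POLR3G, the subunit that POLR3GL can replace, was the only one called lower, with 595.5, 482 and 844 in G1 and 343.6, 379.1 and 391.7 in M-phase (log2 change -0.74, SE 0.17, adjusted p = 0.000292 from limma). Its peak also holds the promoter of MBLAC2.

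The factors of both promoter types included genes that rose and genes that did not pass the threshold. Of TFIIIB, BRF1, the subunit for internal promoters, rose (log2 change 1.20, SE 0.19), as did TBP (0.81, SE 0.18). BRF2, the counterpart of BRF1 at upstream promoters, and BDP1 had values of 0.10 (SE 0.22) and 0.32 (SE 0.19) and were not past the threshold. GTF3C1 of TFIIIC rose by 1.0 (SE 0.18), as did GTF3C2, GTF3C4 and GTF3C5 (0.70, 0.81 and 0.97), whereas GTF3C3 (-0.56) and GTF3C6 (0.15) were not past the threshold. Of SNAPc, SNAPC2, SNAPC4 and SNAPC5 rose by 1.52, 0.58 and 0.73, whereas SNAPC1 (-0.14) and SNAPC3 (-0.20) were not past the threshold, and SNAPC4 lost its call under all 4 other scalings. POU2F1 and ZNF143, which bind upstream of such genes, rose by 1.06 and 1.07, but had 0.06 and 0.22 with loess, neither past the threshold. MAF1, a repressor of Pol III, rose by 0.77 (SE 0.16), but had -0.16 with loess. Among partners of the RNAs, HEXIM1 of the 7SK particle rose by 1.66 (SE 0.15) and SRP54 of the SRP by 1.52 (SE 0.19), whereas LARP7, which binds 7SK RNA, had a log2 change of 0.05 (SE 0.18), which turned to -0.43 with equal promoter medians and to -0.58 with loess, both called lower.

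For the gene of each class with the highest mean scaled count over the 6 libraries, the 3 protein-coding TSS peaks whose values followed it most closely over these libraries were found, with Pearson's r of the log2 values as the measure. They were TRIM25, RSRP1 and BCAS4 for RMRP (r of 0.9978 to 0.9982) and WDR47, FCHSD2 and RAB40C for RN7SL2 (0.9993 to 0.9996). For VTRNA1-2 they were BARD1, the shared promoter of ARMH1 and TMEM53, and PALS1 (0.9987 to 0.9995), and for RNY1 ZNF790, ZNF124 and KCTD3 (0.9896 to 0.9949). The points share their libraries and the step between the phases, and the best of 13131 peaks were picked, so that these values are a description only.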

How the data were processed

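ATAC-seq values of 3 G1 and 3 M-phase libraries of T98G cells were processed. The chromatin fraction and input libraries were not used here. By the paper's methods, reads were cleaned of adapter sequence (cutadapt) and shortened by 1 base at their 3′ end. Mapping used Rbowtie (QuasR) and the hg19 build, with 1 location kept for reads that had up to 3. After the mitochondrial reads had been taken out with samtools, macs2 called broad peaks from the pooled replicates of a phase. Tool versions and any shift of read ends for Tn5 are not given in the sources used here. The deposited signal values are counts of reads per peak, brought by the authors to the size of the smallest library and rounded to 0.1. The deposited table also holds the authors' own log2 comparison of the phases and its SD, which were not used. Each M-phase column stands for 1 replicate with 2 runs. Columns left out because they matched no sample numbered 0.

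Peaks were fitted with limma 3.58.1 in R 4.3.3 on log2(scaled count + 8) with a mean-variance trend, over all 6 libraries without covariates or further scaling. Peaks with at least 3 libraries at 10 or more in a library of median size, and a total of at least 15, were tested, 73121 in all, with Benjamini-Hochberg adjustment and a threshold of 0.05. In simulated data the fit recovered most of the largest changes put in, but few or none of the smaller ones. Only a small part of the simulated peaks was changed, whereas 14.3% were called higher and 13.1% lower here. The recovery therefore need not hold for these data. The depth before scaling is not stated, so no counting interval is given, and the number of libraries limits the precision. No peak ran past a chromosome end of GRCh37. TSSs came from GENCODE release 44, and RPPH1 and RN7SL1 were placed with blastn 2.17.0. Sequences and motifs were read from GRCh37 with pysam 0.24.0 and biopython 1.88, with identity counted over a global alignment.

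The genes, lists and tests were chosen with earlier results of these data known. The text names all 10 genes, every other small RNA gene of the lists that has a peak, neighbours in a peak, the tested flanking peaks, and the best correlated promoters. Of machinery promoters it names the 5 largest rises and falls past the threshold, 12 genes whatever their change, and further members of Pol III, TFIIIB, TFIIIC and SNAPc. The alternatives were other scalings, pseudocounts, filters and windows, the replicate block, peaks with no protein-coding TSS, and each library left out in turn. Of the listed names, PECAM1, RNU11, RNU12 and RNU2-1 were not analysed here, and TROVE2 was found as RO60. Promoter sequences of the 7SL genes are not reported here.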

Additional observations from a re-analysis of the deposited data

How the results depend on the processing

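Of the named genes 7 were called higher in the deposited scaling and 5 with TMM. With equal totals in peaks, equal promoter medians and loess, 3 of the 10 were higher in each case, and 1 was lower with the last 2. Over all peaks tested, 12.1% were higher with TMM, 8.67% with equal totals, 6.75% with equal promoter medians and 10.8% with loess. The shares called lower were 17.3%, 24.7%, 30.6% and 13.6% in the same order. Peaks with no protein-coding TSS left 3 higher of 6, and no peak of the upstream type, so no median of that type. With equal totals, equal promoter medians and loess the median log2 change of the upstream type became 0.17, 0.04 and 0.02. That of the internal type became 0.32, 0.19 and 0.0, and the difference between the types 0.02 with loess. Of machinery promoters 26 with equal totals, 22 with equal promoter medians and 17 with loess were higher. With TMM, equal totals, equal promoter medians and loess, 3, 7, 10 and 6 were lower. Other Pol III small RNA genes gave 2, 2 and 3 higher under the last 3 scalings, and Pol II snRNA genes 6 and 4 higher under the last 2. Over all peaks 6342 were higher and 18092 lower with equal totals, and 4937 and 22343 with equal promoter medians. A filter of at least 10 in every library left 43658 peaks to test. Of these 5001 were lower, a share of 11.5%, against 13.1% of the 73121 peaks tested otherwise. Among values past the threshold in either fit, the direction turned with loess for RPPH1 (-0.18), VTRNA1-1 (0.0), VTRNA1-2 (-0.09), RNU1-4 (-0.02), RNU2-2P (-0.08), RNU4ATAC (-0.05) and MAF1 (-0.16). It also turned for RNY1 (-0.41 with equal promoter medians, -0.42 with loess) and LARP7 (-0.43 and -0.58). Of values past the threshold in neither, VTRNA1-3 (-0.14), RNY3 (-0.05), VTRNA2-1 (-0.04), BRF2 (-0.02) and BDP1 (-0.09) were below 0 with loess, and VTRNA1-3 (-0.09) and RNY3 (-0.06) also with equal promoter medians. The cause of these differences was not tested. Leaving out 1 library gave 4 (without M-phase replicate 3) to 9 (without G1 replicate 3) named genes higher, 3 (without G1 replicate 2 or M-phase replicate 3) to 7 other Pol III small RNA genes, and 5374 (without G1 replicate 3) to 7966 of all peaks lower. The share of all peaks tested called higher was 11.4% without M-phase replicate 3 and 17.1% without G1 replicate 3. RMRP, RN7SL1, RN7SL2 and VTRNA1-1 were called higher in each fit that left out 1 library. Nothing is read from this, since the genes were selected on this contrast. Libraries with the same replicate number hardly deviated together (r of 0.00594, -0.0101 and 0.0284), so the numbers were not taken as pairs, and with the replicate block 7 named genes, 10881 of all peaks higher and 10063 lower were called. Tests on whole reads were planned for values that could be turned back into reads and were not run, since the rounded values of 3 libraries could not be turned back exactly.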
